A study of Mus musculus with 232 samples.

Results

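Transcripts of 10 heat shock protein and chaperone genes were followed through single mouse embryonic stem cells that differed in their microRNAs. The members were chosen by name and role: the cytosolic HSP90 genes Hsp90aa1 and Hsp90ab1, the cytosolic HSP70 gene Hspa8 with its relative Hsph1, the J-domain genes Dnaja1 and Dnajb1, the endoplasmic reticulum gene Hspa5, and the mitochondrial genes Hspa9, Hspd1 and Hspe1. They are 10 of 42493 genes in the count files, and all 10 were among the 11186 genes that averaged 5 counts or more per cell. Earlier results of these data were known when the members and the lists of related genes were chosen. Their counts beside shares of all genes are therefore descriptions. Single-cell RNA sequencing covered 182 cells in 4 conditions: 16 wild-type (WT) V6.5 cells, 60 Dgcr8-/- cells given a mock transfection, 58 Dgcr8-/- cells transfected with a miR-294 mimic, and 48 Dgcr8-/- cells transfected with a let-7 mimic. Dgcr8 is the partner of the nuclease Drosha, so the knockout cells make almost no canonical microRNA and each mimic puts 1 back. Every condition was cultured with serum, LIF and the 2 inhibitors PD0325901 and CHIR99021 (2i), and the sources describe capture on a Fluidigm C1 chip 24 h after transfection. The labels give the same transfection reagent for all conditions and name no mimic for WT. The let-7 member is given differently by the sources (let-7i in the sample titles, let-7b and let-7c elsewhere), and the condition is called let-7 below.

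Each condition is 1 sample: no separate cultures are named and each chip held 1 condition, so chip and condition cannot be told apart. Means, SDs, medians and ranges below run over cells and describe these 4 samples. No p-value is given, because cells of 1 culture are not replicates of a condition. A gene is called higher or lower where the mean normalized count differed by at least 1.5-fold, and the share of all genes past that fold is printed beside each count of members.

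Heat shock proteins are molecular chaperones that bind unfolded or partly folded proteins. HSP70 proteins bind short exposed stretches of a client, J-domain proteins deliver the client and stimulate the ATPase, and HSP90 takes over many kinases and receptors at a late stage of folding. Hspa5 (BiP) does the HSP70 work in the endoplasmic reticulum, where it also holds the stress sensors of the unfolded protein response, while Hspa9 (mortalin) pulls proteins into mitochondria and Hspd1 and Hspe1 (HSP60 and HSP10) form the chamber in which they fold. Heat shock factor 1 drives the cytosolic and some mitochondrial genes through heat shock elements, inverted repeats of GAA, when unfolded proteins build up. Embryonic stem cells keep many of these genes at a high level without any heat shock.

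The cells had total counts between 513521 and 3979274, with medians of 1307481 in WT, 1574732 in mock, 1435139 in miR-294 and 1524918 in let-7 cells. All cells of the 4 conditions held counts of the pluripotent stem cell markers (8 genes such as Pou5f1 and Sall4), whose summed normalized count had medians of 7550 in WT, 8918 in mock, 9674 in miR-294 and 5773 in let-7 cells. Of these 8 markers, 6 were at least 1.5-fold lower in let-7 than in mock cells, where 17.1% of all 11186 genes were. The paper, with a partly different set of pluripotency markers, reported no significant change across the 4 conditions. Ratios of means are not the same measure as that statement of significance. The part of these markers in the chaperone values was not tested. Fibroblast feeder markers had a median of 0 in every condition, with 6, 5, 4 and 5 of 7 genes at 0 in all WT, mock, miR-294 and let-7 cells and a highest sum of 378 in 1 let-7 cell. Markers of endoderm, mesoderm and neural cells (8 genes) had median sums of 0.64 in WT, 0 in mock, 0 in miR-294 and 1.02 in let-7 cells, with highest sums of 218.8, 519, 124 and 507 in single cells. Counts of Dgcr8 averaged 128 ± 178 (SD, n = 16 cells) in WT and 55.6 ± 126 (n = 60) in mock cells, and gene counts do not separate the deleted part of the transcript from the rest. Sequencing runs of 1 cell correlated with r of 0.969 to 0.99 in 48 pairs, but 2 pairs (1 let-7 and 1 WT) disagreed, with r of 0.478 and 0.498. Another 4 pairs of cells with different numbers (3 let-7, 1 miR-294) were as alike as runs of 1 cell, with r of 0.980 to 0.991, where the next most alike pair of cells reached 0.704. With 1 cell of each such pair left out 178 remained, and 176 without the cells whose runs disagreed, and neither removal took a member across the 1.5-fold line in any comparison. Titles of 3 miR-294 cells begin with MIR_294_ and those of the other miR-294 cells with miRNA294_. Leaving these 3 cells out also took no member across the line.

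The introduced miRNAs are printed because their seeds decide which of the chaperone transcripts could carry a match. Capitals mark the seed (bases 2 to 8), which all 3 let-7 forms named by the sources share. Sequences are those of RefSeq on GRCm38.p6, and miR-294 lies at chr7:3220691-3220712 on the + strand.
mmu-miR-294-3p: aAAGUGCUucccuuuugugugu
mmu-let-7b-5p: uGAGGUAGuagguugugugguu
mmu-let-7c-5p: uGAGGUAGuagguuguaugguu
mmu-let-7i-5p: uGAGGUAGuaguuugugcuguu
The 3′ UTRs of the members (Gencode M21 on GRCm38) were 83 to 4203 bases long, against a median of 1199 over 10304 genes. None held CTACCTC, the match to the let-7 seed, which 10.6% of those genes held. Dnaja1 was the member with a match to the miR-294 seed (AGCACTT, in 18.2% of genes), near the end of the longest of these UTRs at position 4160 of 4203. The site is printed with 8 bases on either side, the match in capitals, at chr4:40737098-40737120 on the + strand of GRCm38.
Dnaja1 site: cccttatgAGCACTTatggtaaa
Mean counts of Dnaja1 were 1008 in mock and 1028 in miR-294 cells. A match of these letters is a description and does not show that the miRNA bound there.

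Promoter windows (250 bases before to 50 after a start, RefSeq, GRCm38.p6) were found for 6 members, Hsph1, Dnaja1, Dnajb1, Hspa5, Hspd1 and Hspe1, in 11 windows. Hspd1 and Hspe1 lie head to head on chromosome 1, with the genes overlapping by 112 bases. Hspd1 has 2 windows: that of its inner start shares 285 bases with the Hspe1 window, while that of its outer start, at position 55088243, held 0 heat shock units, so the units below lie inside Hspd1 as counted from there. The stretch is shown because these genes carried both of the lower calls below, and in it TTC and GAA repeats (capitals) end 72 bases before the Hspe1 start, at chr1:55088039-55088096 on the + strand.
Hspd1/Hspe1 promoter: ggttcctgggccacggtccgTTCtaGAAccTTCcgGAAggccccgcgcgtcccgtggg
Hspa5 held the endoplasmic reticulum stress element, CCAAT and CCACG spaced by 9 bases (capitals), ending 47 bases before its start at chr2:34772005-34772063 on the + strand. It is shown beside Hspa5 because that gene is the member called higher below.
Hspa5 promoter: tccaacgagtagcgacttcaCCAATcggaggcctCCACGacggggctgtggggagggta
Hsph1 held 3 heat shock units 15 to 27 bases after its start, at chr5:149636280-149636308 on the - strand.
Hsph1 start region: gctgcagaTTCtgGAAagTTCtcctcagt
Searched on both strands, a run of 3 units (GAANNTTCNNGAA or TTCNNGAANNTTC) occurred in the windows of 3 of the 6 members and in 0.608% of 32544 promoters. Hspd1 and Hspe1 hold the same stretch, which is counted for both. A member is counted if any of its windows holds a match, whereas the share over promoters is per single window. A pair of units (GAANNTTC or TTCNNGAA, which any run of 3 also holds) occurred in 4 of the 6 and in 15.1% of promoters. The element of Hspa5 occurred in 0.12% of promoters, and the CCAAT box alone, which it overlaps, in 5 of the 6 members and 37.4% of promoters. These are counts of letters, and nothing about factor binding was measured.

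The 10 genes together took 2.96 ± 0.53% (SD, n = 16 cells) of a WT cell's counts, 2.57 ± 0.42% (n = 60) in mock, 2.50 ± 0.38% (n = 58) in miR-294 and 1.91 ± 0.42% (n = 48) in let-7 cells. On FPKM, which is per length and so compares genes, Hsp90ab1, Hspa8 and Hsp90aa1 stood far above the rest in every condition. Their mean FPKM in WT were 4330 for Hsp90ab1, 4027 for Hspa8 and 2570 for Hsp90aa1, which ranked 7, 11 and 25 among 11186 genes. Within each condition, the lowest of these 3 genes by mean exceeded the fourth member in 100% of cells. Between the mitochondrial, J-domain and endoplasmic reticulum genes the order was close. In WT the mean FPKM ran from Hspe1 (594) through Hspd1 (532), Dnaja1 (412) and Hspa5 (260.0) to Hspa9 (199.6), and Hspe1 exceeded Hspd1 in 62.5% of cells. Hsph1 (60.1) and Dnajb1 (19.2), both strongly heat-inducible genes, were the lowest. In let-7 cells Hspa5 (355) had the highest mean FPKM after the leading 3, but it exceeded the next member, Dnaja1 (293.7), in 52.1% of cells, so the pair was not separated cell by cell.

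**Figure D1:**
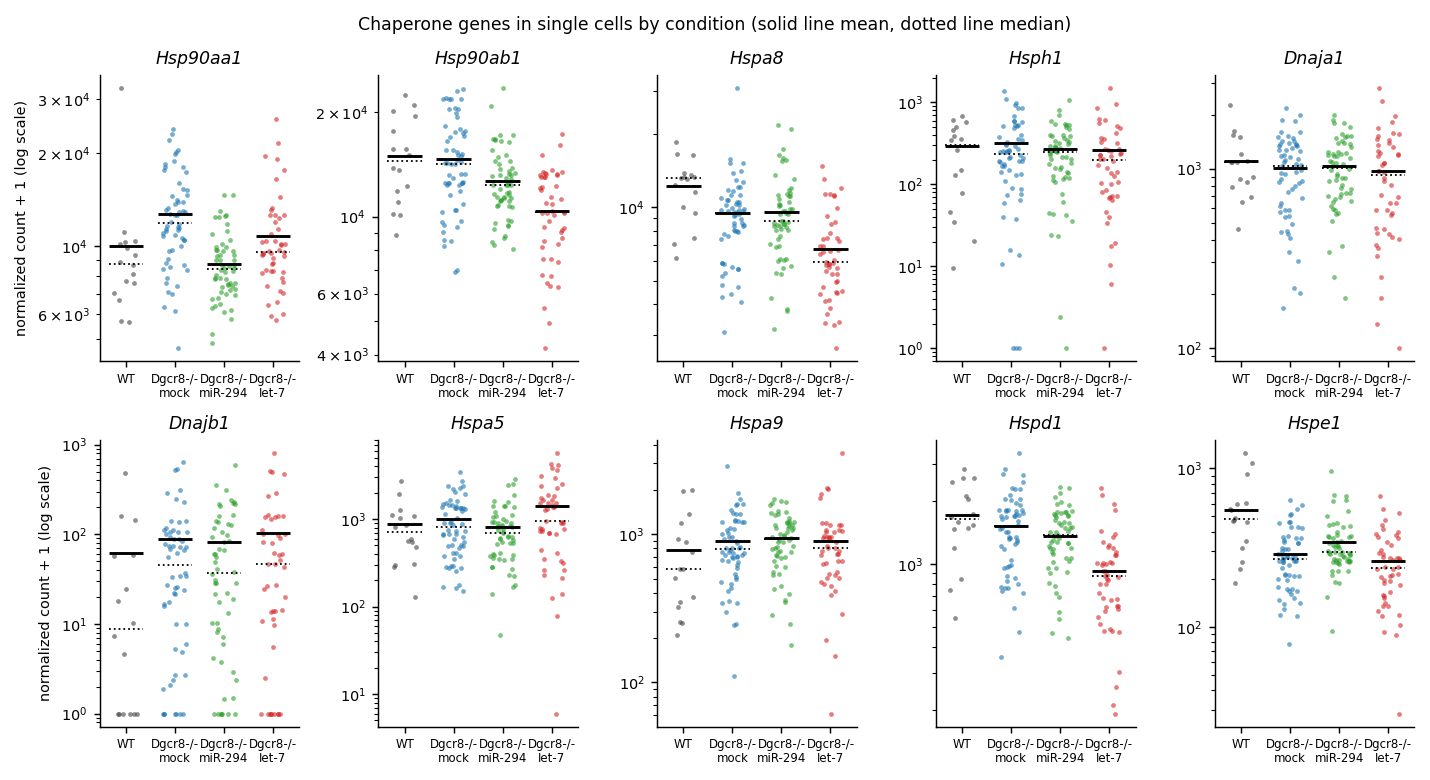
Normalized count plus 1 of each of the 10 chaperone genes on a log axis, 1 panel per gene and 1 point per cell, for 16 WT, 60 mock, 58 miR-294 and 48 let-7 cells, with the solid line at the mean and the dotted line at the median. The ranges of all conditions overlap for every gene, and Dnajb1 spreads from 0 to 809.5.

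The cytosolic HSP90 pair did not pass 1.5-fold in any comparison. Hsp90aa1, the inducible isoform, had a lowest, median and highest normalized count of 5684, 8766 and 32709 in WT and of 4660.1, 11869 and 23997 in mock cells. In miR-294 cells the same values were 4861, 8397 and 14656, and in let-7 cells 5736, 9596 and 25791. The ranges overlapped throughout, the highest value of all belonged to 1 WT cell, and mock cells had the highest median. The mean was 12746 ± 4430.3 (SD, n = 60 cells) in mock against 8773 ± 2208 (n = 58) in miR-294 cells, a log2 ratio of -0.54, and the miR-294 cell was the higher in 20.9% of all pairs of 1 cell from each. Against WT (9998 ± 6282, n = 16) the mock mean stood at a log2 ratio of 0.35, with the mock cell higher in 77.2% of pairs.

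Hsp90ab1, the constitutive isoform, had a lowest, median and highest count of 8845, 14458 and 22505 in WT and 6911, 14213 and 23325 in mock cells. The corresponding values were 8082, 12306 and 23568 in miR-294 cells and 4174, 10295 and 17288 in let-7 cells. WT and mock cells lay over the same range, and let-7 cells reached lower and not as high. The let-7 mean of 10395 ± 3008 (SD, n = 48 cells) stood at a log2 ratio of -0.49 to the mock mean of 14628 ± 4369.9 (n = 60), and the let-7 cell was higher in 22.5% of pairs.

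Hspa8 (HSC70), the constitutive cytosolic HSP70, was lowest in let-7 cells. Its lowest, median and highest counts were 6212, 13109.7 and 18475 in WT, 3075, 9458 and 30893 in mock, 3154, 8759.8 and 21642 in miR-294 and 2642, 5933 and 14701 in let-7 cells. All ranges overlapped, and the top mock value came from a single cell described below. The log2 ratio of let-7 to mock was -0.49 on means of 6718 ± 2788 (SD, n = 48 cells) and 9439.9 ± 4062 (n = 60), short of 1.5-fold, and -0.67 on medians, past it. Hspa8 shares 43.6% of its 31-base stretches with other genes, chiefly the processed pseudogene Gm15459, and Gm26825 overlaps that copy on the opposite strand. Their normalized counts averaged 2035 (Gm15459) and 1853 (Gm26825) in mock cells, so the split of reads between these 3 genes is uncertain. With the counts of all 3 added, Hspa8 kept its direction in mock against WT (-0.34) and in let-7 against miR-294 (-0.52).

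Hsph1 (HSP110), the exchange factor that releases ADP from HSP70, ranged from 0 to 1517, and its means of 291 ± 232 (SD, n = 16 WT cells), 316 ± 297 (n = 60 mock), 272 ± 208 (n = 58 miR-294) and 259 ± 284 (n = 48 let-7) differed by less than the SD. Dnaja1, a J-domain partner of HSC70, ranged from 98.6 to 2835, with condition means between 965 ± 592 in let-7 and 1108 ± 449 in WT cells. Both genes thus stayed within 1.5-fold in all 4 comparisons.

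Dnajb1 (HSP40), a J-domain partner of HSP70 that heat induces strongly, was scattered. Its lowest, median and highest counts were 0, 7.85 and 485 in WT, 0, 44.9 and 638 in mock, 0, 35.8 and 593 in miR-294 and 0, 46.1 and 809.5 in let-7 cells. A count was present in 62.5% of WT cells (exact 95% interval 35.4 to 84.8%), 88.3% of mock (77.4 to 95.2%), 87.9% of miR-294 (76.7 to 95%) and 81.2% of let-7 cells (67.4 to 91.1%), intervals that cover counting error only and overlap. After thinning each cell to 500000 counts, which every cell exceeded, the shares were 62.5, 85, 81 and 79.2%. Mean counts were 60.1 ± 124 (SD, n = 16 cells) in WT and 87.6 ± 131 (n = 60) in mock, a log2 ratio of 0.54. Without the highest cell of each condition the ratio was 1.30, and on medians it was 2.52, so a few cells set the mean of this gene.

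Hspa5, the chaperone of the endoplasmic reticulum, was called higher in let-7 than in miR-294 cells. Its lowest, median and highest counts were 127, 704 and 2713 in WT, 149.9, 810.4 and 3493 in mock, 46.2, 700.1 and 2836 in miR-294 and 5.0, 946 and 5713 in let-7 cells. The let-7 range held all the others, with both the lowest and the highest cell. On means of 1408 ± 1275 (SD, n = 48 cells) and 818 ± 587 (n = 58) it was 1.72-fold higher in let-7 than in miR-294 cells, and the let-7 cell was higher in 62.4% of pairs. It stood at a log2 ratio of 0.48 to mock cells (1011 ± 727, n = 60), below the line. The call against miR-294 cells was lost when cells were scaled by their total count (0.53), summed over cells (0.47), taken as medians (0.43) or given as FPKM (0.54).

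In mitochondria, Hspe1 (HSP10, the lid of the chamber) was 1.91-fold lower in mock than in WT cells. Its lowest, median and highest counts were 189.6, 479.8 and 1254 in WT, 76.7, 267 and 629 in mock, 93.8, 296 and 966 in miR-294 and 27.4, 234 and 668 in let-7 cells. The ranges overlapped, but the WT median lay above the upper quartile of mock cells, and the mock cell was the higher in 19.3% of pairs. On means of 549.8 ± 302 (SD, n = 16 cells) and 287 ± 124 (n = 60) the log2 ratio was -0.94, and it lay between -1.16 and -0.84 over 13 other ways of processing the counts. Summed over cells, Hspe1 stood at 357 CPM (counts scaled to 1000000) in WT (exact Poisson 95% interval 349.5 to 365) and 189 in mock cells (186 to 192), intervals of counting error that leave out the difference between cells and cultures. Of 3092 genes with a mean normalized count of at least 100, 4.40% had a lower ratio of mock to WT.

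Hspd1 (HSP60, the chamber itself) was the member called lower in let-7 cells. Its lowest, median and highest counts were 549, 1631 and 2840.5 in WT, 356, 1506 and 3389 in mock, 438, 1365 and 2326 in miR-294 and 191, 868 and 2294 in let-7 cells. The let-7 cells reached lower than any other condition and again overlapped all of them. The mean of 918 ± 462 (SD, n = 48 cells) was 1.66-fold below the mock mean of 1521 ± 623 (n = 60), with the let-7 cell higher in 21.8% of pairs. The log2 ratio of -0.73 lay between -0.81 and -0.72 over 13 other ways of processing, among them leaving out the doubted let-7 cells (-0.72). Summed CPM were 974 (exact Poisson 95% interval 968 to 980.2) in mock and 554 (549 to 559) in let-7 cells, and 9.18% of the 3092 reference genes had a lower ratio. Hspe1, its head-to-head neighbour, stood at -0.16 in the same comparison, and Hspd1 at -0.17 where Hspe1 had its call, so neither call was shared by the pair. Hspa9, which was between 60.5 and 3535 in single cells, had means of 779.6 ± 577 (n = 16) in WT and 895 ± 478 (n = 60), 936 ± 384 (n = 58) and 899 ± 584 (n = 48) in mock, miR-294 and let-7 cells. No comparison placed it past 1.5-fold.

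Few of the chaperones passed 1.5-fold, and the shares over all genes stand beside each count. In mock against WT, 0 of 10 members were higher, where 42.8% of all 11186 genes and 29.6% of the 3092 reference genes were. In the lower direction 1 member, Hspe1, passed, where 17.4% of all genes and 12.2% of reference genes did. The members' median log2 ratio was 0.04, beside 0.38 for all genes and 0.17 for reference genes. Scaling by total counts moved the median of all genes to 0.17 and that of the members to -0.12, so the sign of the members' median depended on the scaling, while it stayed below the reference median (-0.04) as before.

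For miR-294 against mock, 0 members were higher, beside 11.7% of all genes and 4.62% of reference genes, and 0 were lower, beside 35.1% and 23%. The members' median was -0.13, with -0.28 for all genes and -0.17 for reference genes. It was 0.08 when scaled by total counts, with the reference median at 0.02. For let-7 against mock, 0 members were higher, where 31.5% of all and 15.1% of reference genes were, and 1, Hspd1, was lower, where 17.1% of all and 13.8% of reference genes were. Here 7 of 10 members had a ratio below 0, the members' median was -0.20, and the medians of all genes and reference genes were 0.18 and 0.01. That median was negative under all of the 13 other ways of processing that were run, from -0.33 to -0.19.

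For let-7 against miR-294, 1 member was higher (Hspa5), where 46.1% of all genes and 30.1% of reference genes were, and 0 were lower, where 14.2% and 13.8% were. Scaled by total counts, 36.7% of all genes were higher and 20.96% lower, 0 members were higher and 3 were lower (Hspa8, Hspd1 and Hspe1). The members' median was -0.08 in the first scaling and -0.37 in the second, against reference medians of 0.16 and -0.11. The mock cells serve 3 of the 4 comparisons and the last shares both of its conditions with others, so the comparisons are not independent of each other. Fewer molecules of a transcript per cell and a smaller share of the cell's RNA cannot be told apart in these counts.

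**Figure D2:**
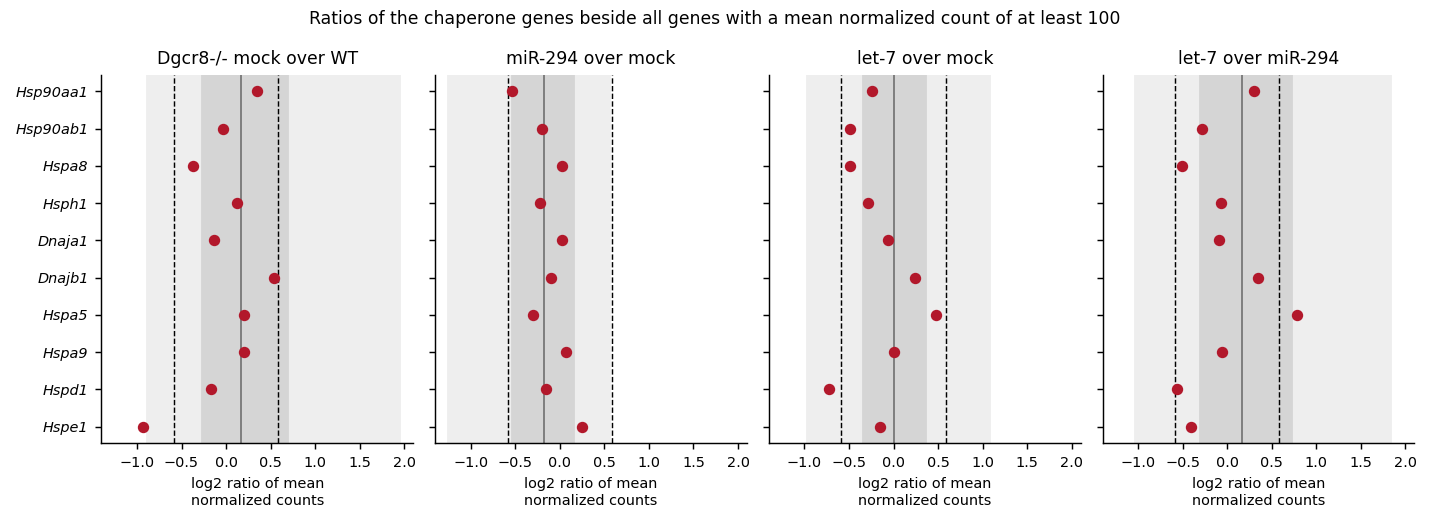
Log2 ratio of mean normalized counts of each chaperone gene in the 4 comparisons, with dashed lines at 1.5-fold and grey bands over the 25 to 75% and 5 to 95% ranges of 3092 reference genes. Hspe1 lies below the line in mock against WT (-0.94), Hspd1 in let-7 against mock (-0.73), and Hspa5 above it in let-7 against miR-294 (0.78).

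Induction was then looked for in single cells. The genes that heat shock switches on most sharply, Hspa1a and Hspa1b (inducible HSP70), were nearly silent. Hspa1a had a count in 1 of 182 cells (3 counts, in a miR-294 cell), and 0 of 16 WT, 0 of 60 mock and 0 of 48 let-7 cells allow shares of up to 18.8, 5.0 and 6.25% of cells with a count, on the rule that a count of 0 allows 3 (the exact 95% interval reaches 20.6, 5.96 and 7.40%). Hspa1b had a count in 3 mock, 2 miR-294 and 1 let-7 cells, with 92 counts in 1 mock cell and between 1 and 15 in the others. No cell thus showed inducible HSP70 near the level of Hspa8, whose lowest cell had 2642 normalized counts.

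Among the members, a cell was called high where a gene exceeded 3 times its median over all cells. This held for 84 of 1820 pairs of cell and gene (4.62%), and for 12.8% of pairs over 3085 reference genes, which were not matched to the members in level. By condition it held for 5.62% of member pairs in WT, 4.33% in mock, 4.14% in miR-294 and 5.21% in let-7 cells. The reference share was taken over all cells together, so none stands beside the counts by condition. Dnajb1 alone gave 48 of the 84, Hspa5 15 and Hsph1 13, and the heavily expressed Hsp90ab1, Dnaja1 and Hspd1 gave 0. High Hspa5 was found in 8 of 48 let-7 cells, 3 of 60 mock, 3 of 58 miR-294 and 1 of 16 WT cells. The 8 include both cells of a near-identical pair, and with 1 cell of each such pair left out 7 of 45 let-7 cells were high, a difference that no test could address with 1 sample a condition. High Hspe1 was found in 3 WT cells and 1 miR-294 cell.

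Several members were seldom high together. Of 182 cells, 6 had at least 2 members high and 1 had at least 3. That mock cell had 4, namely Hspa8 (30893), Hspa5 (3493), Hspa9 (2891) and Dnajb1 (110.1), while its Hsp90aa1 count (4660.1) was the lowest of all cells and its Hspa1a and Hspa1b counts were 0. Its count of Cryab, a small heat shock protein, was 2710.1, the highest of all cells, and its mitochondrially encoded share of 0.006% was the lowest. It was 1 of 60 mock cells, and under 3 other ways of scaling and on FPKM no cell had 3 members high.

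In each of the 4 conditions Hsp90ab1 varied least of the members between cells and Dnajb1 varied most. The coefficient of variation was 0.24 to 0.30 over the 4 conditions for Hsp90ab1, 0.28 to 0.43 for Hspa8, 0.25 to 0.63 for Hsp90aa1 (highest in WT) and 1.35 to 2.06 for Dnajb1, beside a median of 0.91, 0.96, 0.82 and 1.00 over reference genes in WT, mock, miR-294 and let-7 cells. In mock cells 0.42% of reference genes had a smaller coefficient than Hsp90ab1. Its mean there was 14628, the reference genes were not matched to that level, and the part of level in the coefficient was not tested. The error between 2 runs of the same cell (SD of 1 run on the log2 scale, 48 cells) was 0.04 for Hsp90ab1, 0.08 for Hspa5 and 0.15 for Hspe1, against 0.40 for Dnajb1. The SD between mock cells on that scale was 0.45 for Hsp90ab1, 1.13 for Hspa5 and 2.66 for Dnajb1, so the runs of a cell differed far less than cells did. Steps before sequencing (capture, reverse transcription and amplification) were not repeated within a cell and are part of it.

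The members did not rise and fall as 1 group. The median Pearson r of the 45 member pairs over cells was 0.04 in WT, 0.05 in mock, 0.04 in miR-294 and 0.01 in let-7 cells, and that of all pairs of reference genes was 0.01 to 0.02. Cells share a chip, a size factor and their depth, and the r are descriptions. Hsp90ab1 and Hspa8 gave 0.78 in WT (n = 16 cells), 0.22 in mock (n = 60), 0.59 in miR-294 (n = 58) and 0.20 in let-7 cells (n = 48), all above 0. Hspd1 and Hspe1, the head-to-head neighbours, gave 0.25, 0.41, 0.29 and -0.08 in the same order. Hspa8 and Hspe1 gave -0.69 in WT and between -0.42 and -0.16 elsewhere.

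**Figure D3:**
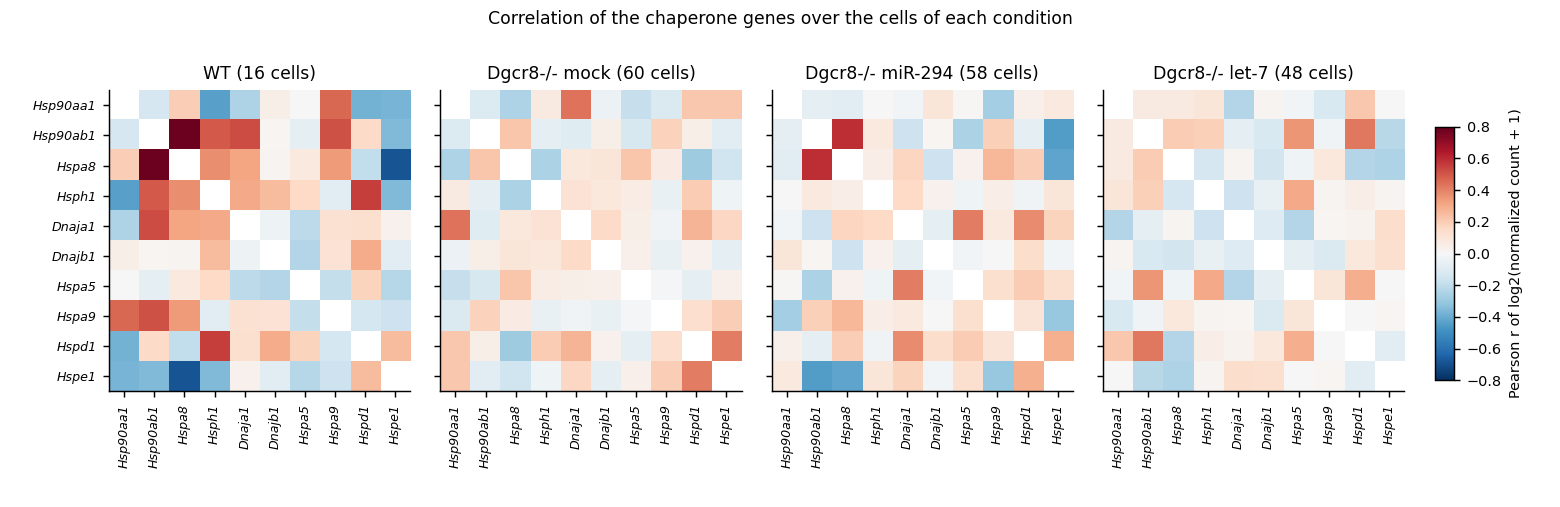
Pearson r between the log2 normalized counts of each pair of chaperone genes over the cells of WT (16), mock (60), miR-294 (58) and let-7 (48), red above and blue below 0. Most pairs lie near 0 (medians 0.01 to 0.05), and Hsp90ab1 with Hspa8 is above 0 in all conditions (0.20 to 0.78).

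In WT, miR-294 and let-7 cells Hspa5 varied along with some other genes of its own compartment, and only weakly so in mock cells. The 7 genes were Hsp90b1, Calr, Canx, Pdia3, Pdia4, Pdia6 and P4hb, a part of a longer list used below. Their r with Hspa5 had a median of 0.37 in WT, 0.07 in mock, 0.25 in miR-294 and 0.43 in let-7 cells, and 7, 7, 6 and 7 of the 7 were above 0. Single r ran from 0.13 to 0.67, 0.00 to 0.31, -0.14 to 0.61 and 0.02 to 0.65 in that order. The 95th percentile over all pairs of reference genes was 0.47, 0.29, 0.28 and 0.31. With Atf4, a transcription factor of the same list that is no chaperone, r was -0.13, 0.10, 0.05 and 0.00. The median with 3083 reference genes lay between 0.01 and 0.05. With Hsp90b1 (GRP94), the HSP90 of the endoplasmic reticulum, r was 0.17, 0.05, 0.61 and 0.64 in WT, mock, miR-294 and let-7 cells. Over all 182 cells Hsp90b1 was also the gene most like Hspa5 among the candidates (r = 0.47). All these r include both cells of each near-identical pair. In the 3 let-7 pairs Hspa5 stood at 4209 and 3842, at 139 and 76.4, and at 957 and 762, so some lie at the extremes.

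For the other members, the most similar gene over 182 cells and 3083 candidates was Gapdh for Hsp90ab1 (r = 0.68), Eif2s2 for Hsp90aa1 (0.42), Atp5j for Hspe1 (0.41) and Gcsh for Hspd1 (0.38). Likeness was weaker for Dnaja1 with Zfp987 (0.36), Hspa9 with Gm21092 (0.36), Dnajb1 with Polr2d (0.34) and Hsph1 with Psma5 (0.26). Hspa8 was nearest to Gm26825 (0.82), which overlaps its pseudogene copy. The mean of the members was nearest to Ruvbl1 (0.33), Ldha (0.31), Usp14 (0.30), Cse1l (0.30) and Hsp90b1 (0.29). The mean of each condition was subtracted from each gene before these r were taken. Differences in mean level between conditions therefore do not add to them.

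Genes around the members in the protein folding network were read from lists of the pathway. The lists were counted under the main size factors only, and for the members the calls of let-7 against miR-294 depended on the scaling. Of 13 other inducible heat shock genes, 10 had a mean count of at least 5. In mock against WT, 8 of them were higher and 0 lower, with a median log2 ratio of 1.35 (all genes 0.38), where 42.8% of all genes were higher and 17.4% lower. In miR-294 against mock, 0 were higher and 7 lower (median -0.97, all genes -0.28), where 11.7% of all genes were higher and 35.1% lower. In let-7 against mock, 3 were higher and 0 lower (median -0.06), beside 31.5% and 17.1% of all genes, and in let-7 against miR-294, 6 were higher and 0 lower (median 0.84), beside 46.1% and 14.2%. Several of these genes were sparse, and in the comparisons other than let-7 against mock the median of all genes had the same sign.

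Atf3, a stress-responsive transcription factor, had a count in 1 of 16 WT, 10 of 60 mock, 5 of 58 miR-294 and 32 of 48 let-7 cells. In let-7 cells this is 66.7% (exact 95% interval 51.6 to 79.6%), and 62.5% after thinning to equal totals, against 16.7% (8.29 to 28.5%) and 15.0% in mock cells. Its mean normalized count was 202 in let-7 and 12.98 in mock cells, and without the highest cell of each (2319 and 470) 157 and 5.23, so 1 mock cell set most of that mean. Hspb1 (HSP27) averaged 41.6 in WT, 119 in mock, 153 in miR-294 and 252 in let-7 cells. Cryab had a count in 3 of 16 WT, 29 of 60 mock, 16 of 58 miR-294 and 22 of 48 let-7 cells. Atf3 was thus counted in a larger share of let-7 than of mock cells, while 7 of the 10 members had a lower mean there.

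Of 22 endoplasmic reticulum chaperones and unfolded protein response genes, 10 were higher and 2 lower in mock than in WT cells (median 0.55), near the 42.8% and 17.4% of all genes. In miR-294 against mock 2 were higher and 5 lower (median -0.30), beside 11.7% and 35.1%. In let-7 against mock, 10 were higher and 1 lower (median 0.34), beside 31.5% and 17.1% of all genes, and against miR-294 14 were higher and 0 lower (median 0.94, all genes 0.49), beside 46.1% and 14.2%. The genes with the largest ratios of let-7 to mock were Creld2, an endoplasmic reticulum stress-induced protein (38.4 in mock, 217 in let-7), Trib3, a target of the stress factors ATF4 and CHOP (18.2 and 92.4), and Herpud1, part of endoplasmic reticulum-associated degradation (60.05 and 200.4). The gene for CHOP, Ddit3, averaged 20.2 in mock, 6.97 in miR-294 and 43.99 in let-7 cells. Hspa5 had the same direction as these genes in let-7 cells, with a smaller ratio.

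Of 14 subunits of the cytosolic chaperonin TRiC and of prefoldin, which fold actin and tubulin, 1 was higher and 3 lower in let-7 than in mock cells (median -0.36), beside 31.5% and 17.1% of all genes, and 0 were higher and 5 lower than in miR-294 cells (median -0.50), beside 46.1% and 14.2%. Of the reference genes, 15.1% were higher and 13.8% lower in let-7 against mock, and 30.1% and 13.8% in let-7 against miR-294. In mock against WT 0 were higher and 1 lower (median -0.01), beside 42.8% and 17.4%, and in miR-294 against mock 1 was higher and 0 lower (median 0.07), beside 11.7% and 35.1%. The lower subunits in let-7 against mock were Cct3 (1973 in mock, 1077 in let-7), Tcp1 (1503 and 916) and Cct7 (1776 and 1122). Like Hspd1 (918), they had lower means in let-7 cells at mean levels of 916 to 1122 counts.

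The 21 cytosolic co-chaperones measured moved both ways, with 6 higher and 5 lower in mock against WT (median 0.24), 1 and 4 in miR-294 against mock (median -0.05), 5 and 7 in let-7 against mock (median -0.33), and 4 and 5 in let-7 against miR-294 (median 0.03). The shares of all genes higher and lower in these comparisons were 42.8% and 17.4%, 11.7% and 35.1%, 31.5% and 17.1%, and 46.1% and 14.2%. The largest changes of let-7 against mock were Bag1, an exchange factor of HSP70 (23.7 in mock, 48.1 in let-7), Fkbp5, an HSP90 partner of steroid receptors (78.2 and 151), and in the other direction St13 (HIP), which steadies HSP70 on its client (2001 and 1083). The 12 mitochondrial co-chaperones and proteases gave 4 higher and 2 lower, 0 and 1, 3 and 2, and 3 and 1 in the same order of comparisons, to be read against the same shares. In let-7 against mock the largest were Spg7, a subunit of an inner membrane protease (11.04 in mock, 48.2 in let-7), Grpel2, an exchange factor of Hspa9 (58.6 and 180.6), and, lower, Timm44, which tethers Hspa9 to the import channel (85.5 and 44.2). Both heat shock factors, Hsf1 and Hsf2, were higher in mock than in WT cells, as 42.8% of all genes were, at log2 ratios of 0.93 and 0.63. Hsf1 was also higher in let-7 than in mock cells (0.65), as 31.5% of all genes were, and Hsf2 was not called (-0.29). In that comparison the members with heat shock units in a promoter window had ratios of -0.29 (Hsph1), -0.73 (Hspd1) and -0.16 (Hspe1). Dnaja1, with a single pair of units, had -0.06. A link between the transcripts of the factors and these members was not tested.

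**Figure D4:**
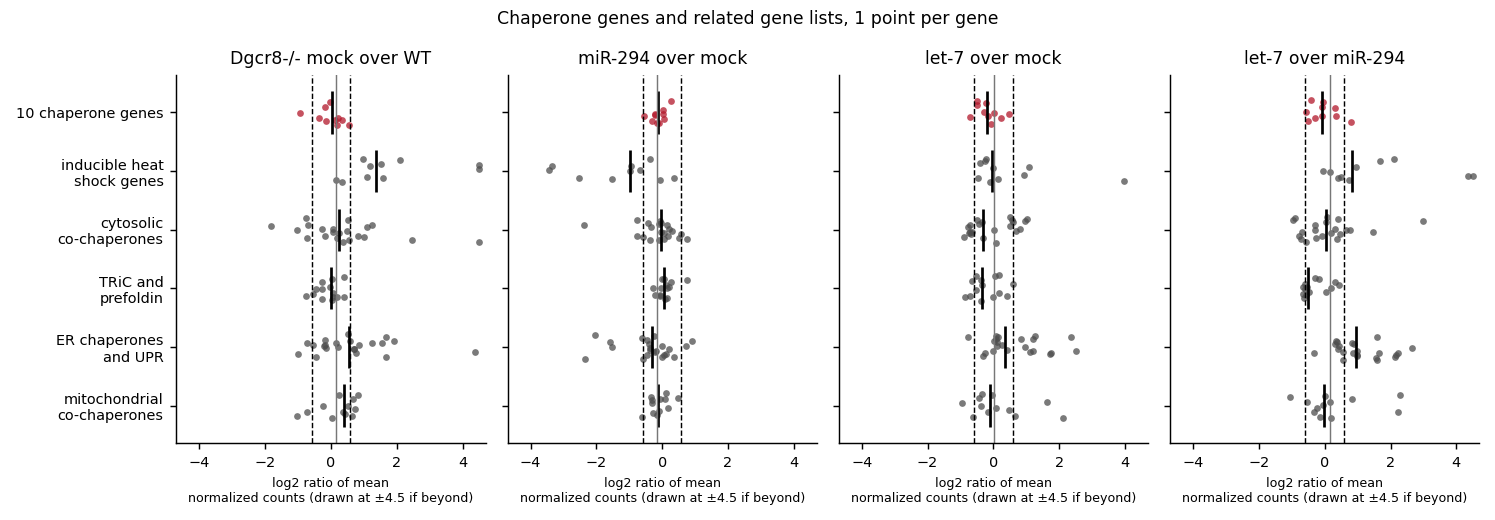
Log2 ratio of mean normalized counts, 1 point per gene, for the 10 chaperone genes and the lists of related genes in the 4 comparisons, with a bar at the median of each list and values beyond 4.5 drawn at the edge. The members stay close to 0, while the inducible heat shock genes (median 1.35 in mock against WT) and the endoplasmic reticulum genes (median 0.94 in let-7 against miR-294) reach further.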

How the data were processed

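Mouse embryonic stem cells were captured singly on the Fluidigm C1, capture sites were inspected and those with several or dead cells were discarded by the authors, who also removed shallow or low-diversity cells and transfected cells without lowered miRNA targets. No doublet caller was run here. The authors deposited expected counts and FPKM per gene and run, made with RSEM 1.2.19 per the submitters' processing notes. Expected counts were rounded and summed over the runs of a cell (232 runs, 182 cells). Of 42493 gene IDs, 41674 matched a symbol in Gencode M21 (GRCm38). Counts were divided by DESeq-type size factors (medians of ratios over 862 genes counted in every cell), genes averaging 5 counts or more per cell were kept, and ratios are of mean normalized counts. Correlations used log2(normalized count + 1). The 3092 reference genes had a mean normalized count of at least 100. Deposited FPKM was used to order genes by level and as an alternative.

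Depth per cell was 513521 to 3979274 counts, and intervals (exact Poisson or binomial, 95%) cover counting error only, since reads carry no molecular identifiers. A count of 0 allows 3 counts. Each condition was 1 sample, so no test was made. Genes of a list were named where they were among the 3 with the largest ratio past 1.5-fold in a comparison. Ddit3, Dnajb9 and Hspb1 were also given in other conditions, and the genes correlated with Hspa5 were named too. The members and lists were chosen with earlier results of these data known. Alternatives were total-count and TMM scaling (edgeR 4.0.16, factors only), summed counts, medians, FPKM, first runs, deeper cells, no highest cell, no cells titled MIR_294_, no filter, a 2-fold line and, chosen after seeing the data, the removal of doubted cells, the removal of 1 mock cell, Hspa8 with its copies and scaling by other genes. Python 3.11.15, numpy 2.4.6, scipy 1.17.1, pandas 2.3.3 and R 4.3.3 were used, and scripts were tested on simulated data.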

Additional observations from a re-analysis of the deposited data

How the results depend on the processing

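No paired analysis was possible because each condition is 1 sample, and no sample could be left out. Alternative values were compared for the counts of members called and of cells with at least 3 members high. Of these, 99 stayed close to the reported value and 24 did not. No alternative was run for the lists of related genes. The median coefficients of variation and the median correlations of the members stayed close under every alternative run for them. Scaled by total counts, by summed counts or on FPKM, let-7 against miR-294 had 0 members higher and 3 lower, and by TMM or by the sum over other genes (chosen after seeing the data) 3 lower beside Hspa5. On medians over cells it had 0 higher and 1 lower (Hspd1), and without the highest cell 1 lower (Hspd1). Mock against WT had 1 member higher (Dnajb1) on medians, first runs and without the highest cell. Let-7 against mock had 2 lower on medians (Hspa8 and Hspd1). At 2-fold, Hspe1, Hspd1 and Hspa5 were not called and these counts were 0. Cells with at least 3 members high numbered 0 under total-count, TMM and other-gene scaling, on FPKM and without the mock cell with 4, and 9 at 2 times the median. The causes were not tested, except that a 2-fold line admits fewer genes. No called value changed sign. With no filter on low counts, the share of all genes higher in miR-294 than in mock cells was 22.4% in place of 11.7%, and the share lower in let-7 than in miR-294 cells 22.7% in place of 14.2%. The limits are 1 culture and 1 chip per condition, 16 WT cells, counting without strand for Hspa8 and for the overlap of Hspd1 with Hspe1, and sparse counts of Dnajb1, for which single cells decide the mean.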
